A study of Homo sapiens with 9 samples.

Results

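Human keratinocytes of the immortalized line HaCaT that received UVA and then CT were compared with those that received UVA alone. CT is the extract of the flower tea plant Coreopsis tinctoria Nutt. The UVA+CT group and the UVA group held 3 libraries each, and both groups had been irradiated at 5 J/cm2. The control group, with 3 further libraries, was cultured without irradiation and without CT. Per the methods of the study, CT was added after irradiation. The CT dose and the time from irradiation to harvest are not in the sample labels and are not used here. No library of CT without UVA was analysed here, so an effect of CT that needs UVA and one that does not cannot be told apart. All cells came from 1 line of wild-type genotype, and nothing in the labels says that the 3 libraries of a group were separate cultures. P-values therefore measure the spread between these libraries, which may be technical. Messenger RNA was captured on oligo(dT) beads and sequenced, and the deposited table gives reads counted per gene. Of its 61311 genes, 15154 had enough counts in the 3 groups to be tested, and these are the genes described.

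The UVA+CT libraries held 20129928 to 21971215 counts and the UVA libraries 16390289 to 19527286 counts, so that each UVA+CT library was deeper than each UVA library. The control libraries held 17053246 to 19324311 counts. Levels are given as CPM, the counts of a gene per 1000000 counts of the scaled library total, which allows a gene to be compared between libraries but not with a gene of another length. The keratinocyte markers KRT5, KRT14, KRT6A, KRT17, TP63, ITGA6, CDH1 and DSP together reached 5165 to 5397 CPM in UVA+CT cells and 4979 to 5439 CPM in UVA cells, and 0 of these 8 genes was called. Markers of other skin cells were low in sum. The 10 fibroblast markers reached 1.21 to 2.14 CPM in UVA+CT cells and 1.70 to 1.83 CPM in UVA cells, and the 8 melanocyte markers 2.04 to 2.29 CPM in UVA+CT cells and 1.94 to 2.56 CPM in UVA cells. The 8 endothelial markers reached 5.88 to 6.87 CPM in UVA+CT cells and 8.44 to 9.44 CPM in UVA cells, and the 11 leukocyte markers 14.9 to 16.8 CPM in UVA+CT cells and 14.4 to 18.9 CPM in UVA cells. In every library 1 of the fibroblast (PDGFRA), 3 of the melanocyte (TYR, KIT and MLPH), 1 of the leukocyte (AIF1) and 2 of the endothelial markers (KDR and EMCN) had 0 counts. Other markers had counts in every library, among them COL1A1 with 8 to 25, PMEL with 17 to 36, CD68 with 157 to 335, CDH5 with 48 to 120 and VWF with 23 to 84. Less RNA of a kind per cell and fewer cells that make it cannot be told apart in such bulk samples.

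NRF2 is a transcription factor that binds the antioxidant response element and drives the genes of glutathione and thioredoxin metabolism, NADPH supply and quinone reduction. KEAP1 holds it in the cytosol until electrophiles or oxidants modify KEAP1, and plant polyphenols are well-known activators. HIF-1 switches on glucose uptake and glycolysis when its alpha subunit escapes degradation. ATF4 is translated when eIF2α is phosphorylated, as it is on ER stress or amino acid shortage, and drives genes of amino acid synthesis, amino acid uptake and tRNA charging.

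A small share of genes differed between UVA+CT and UVA cells, most of them by less than 2-fold. A gene was called when its p-value from edgeR's quasi-likelihood test, adjusted by the Benjamini-Hochberg method over all 15154 genes, was under 0.05. In total 236 genes were called, 1.56% of those tested, of which 143 were higher (0.944%) and 93 lower (0.614%) in UVA+CT cells. Scaled by library size alone, 117 were higher and 116 lower. The median absolute log2 fold change of the called genes was 0.33, and 39 of them differed by more than 1.5-fold. For all 236 the 3 UVA+CT libraries and the 3 UVA libraries did not overlap, which was also true of 2846 of the 15154 tested genes, or 18.8%. An unadjusted p under 0.05 with a fold change over 2 was met by 111 genes, 0.732% of those tested. The median log2 fold change over all tested genes was 0.0025, so changes are given relative to a centre near 0. The number called was 95 to 124 without any one UVA library, 115 and 120 without UVA+CT replicate 2 or 3, and 372 without UVA+CT replicate 1. In each of the 9 fits without 1 library, 69 genes kept their call, 44 of them higher and 25 lower. The plot of all tested genes shows the called genes mostly at average levels above 10 CPM, and 211 of the 236 had such a level.

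**Figure D1:**
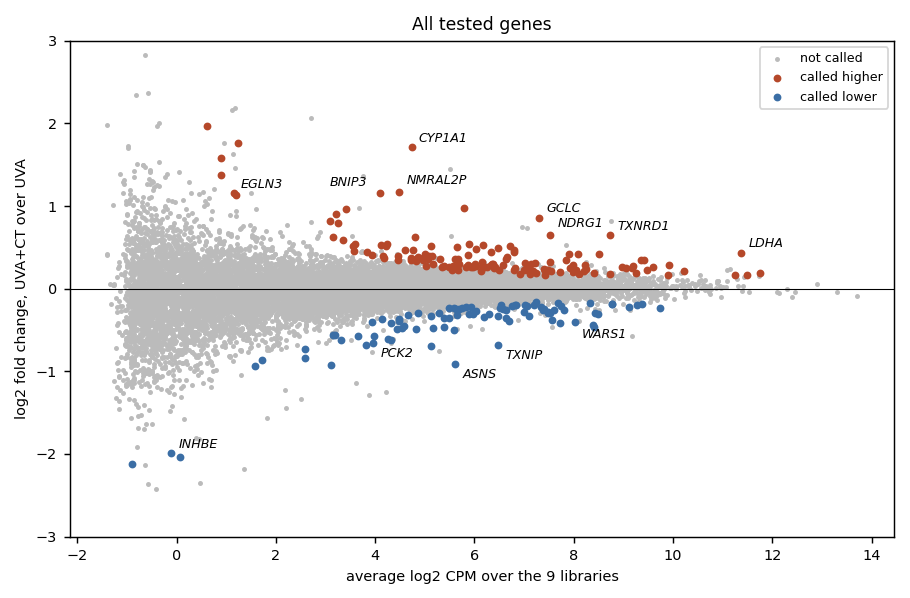
Log2 fold change of each tested gene, UVA+CT over UVA (vertical axis), against its average log2 CPM over the 9 libraries (horizontal axis). Red and blue points are the 143 genes called higher and the 93 called lower at an adjusted p under 0.05, grey points the rest, and 19 genes beyond 3 log2 units, 4 of them called, lie outside the axis. Called genes lie mostly to the right, where small changes could be told from the spread between libraries.

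The genes linked to NRF2 were the group with the most calls. Of 41 tested, 23 were higher and 0 lower in UVA+CT cells, where 0.944% of all tested genes were called higher, and these 41 had a median log2 fold change of 0.34 against 0.0025 over all tested genes. At an unadjusted p under 0.05, 35 were higher and 0 lower, and for 34 of the 41 every UVA+CT library lay above every UVA library. Between 14 (without UVA replicate 2) and 26 were called when 1 library was left out, and 13 kept their call in all 9 of these fits. The list was written with earlier results of these data known, so its count is not independent evidence, and it holds genes that other factors also regulate. Its largest rise was that of the pseudogene NMRAL2P (1.17, adjusted p = 1.13e-07).

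Glutathione synthesis held the gene with the smallest adjusted p of all. GCLC, the catalytic subunit of glutamate-cysteine ligase, which carries out the rate-limiting step, lies on chromosome 6 from 53497341 to 53545101 (GRCh38.p14, as all positions given). It had 246, 235 and 219.6 CPM in the 3 UVA+CT libraries, against 125, 130.1 and 131 CPM in the UVA libraries and 108 ± 2.72 CPM in control cells (SD, n = 3). The groups were far apart, and the change on the log2 scale was 0.86 (standard error 0.046, adjusted p = 3.47e-10). GCLM, the modifier subunit of the same enzyme, had 97.5, 94.2 and 104 CPM in UVA+CT cells, against 71.3, 74.2 and 73 CPM in UVA cells and 71.4 ± 3.55 CPM in control cells. Its log2 fold change was 0.44 (standard error 0.053, adjusted p = 4.4e-05). SLC7A11, the cystine carrier that supplies the cysteine, had 446, 421 and 432 CPM in UVA+CT cells and 343, 360.3 and 363 CPM in UVA cells. Its groups did not overlap either, but its log2 fold change of 0.28 had an adjusted p of 0.0715 and was not called. GPX2, a glutathione peroxidase of epithelia, was higher (0.50, adjusted p = 0.00621), with 105 ± 9.14 CPM in UVA+CT cells and 74.5 ± 3.79 CPM in UVA cells (SD, n = 3 each). GLO1, which uses glutathione to remove methylglyoxal, was higher by 0.25 (adjusted p = 0.00621), and GPX8, an ER-resident peroxidase, was lower (-0.23, adjusted p = 0.0303). The calls of GLO1 and GPX8 were lost without single libraries, with adjusted p up to 0.059 (without UVA replicate 1) for GLO1 and up to 0.132 (without UVA+CT replicate 2) for GPX8. Over all 25 tested genes of glutathione synthesis and use, 4 were higher, 1 was lower, and the median log2 fold change was 0.062. The shares over all tested genes were 0.944% higher and 0.614% lower.

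The promoters of GCLM, TXNRD1, ME1 and GPX2 are shown because these called genes hold the core of the antioxidant response element, TGACNNNGC, within the 300 bases around their annotated start. The sequences are from RefSeq (GRCh38.p14), and each is written so that the core, in capitals, reads in this direction.
GCLM, chr1:93909441-93909479, plus strand, core 34 to 26 bases before the start: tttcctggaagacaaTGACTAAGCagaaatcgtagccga
TXNRD1, chr12:104215665-104215703, plus strand, core 99 to 91 bases before the start: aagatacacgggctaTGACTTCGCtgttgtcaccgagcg
ME1, chr6:83431165-83431203, minus strand, core 137 to 129 bases before the start: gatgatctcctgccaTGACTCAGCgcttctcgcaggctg
GPX2, chr14:64942844-64942882, plus strand, core 122 to 114 bases before the start: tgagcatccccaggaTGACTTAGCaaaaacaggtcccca
The core was searched on both strands from 250 bases before to 50 after each annotated start, and of the 15154 tested genes 10915 had such a sequence. It was present in 29 of 171 promoters of genes called higher (17%), in 11 of 115 promoters of genes called lower (9.57%) and in 2310 of 15763 promoters of all tested genes (14.7%). Among the promoters of the tested NRF2-linked genes the count was 10 of 31 (32.3%), but this list was drawn from textbook knowledge and is not independent of the motif. For genes called at an adjusted p under 0.01 the shares were 11.6% for higher and 3.85% for lower. A match is a run of letters and not a measured binding site, and NRF2 also binds elements farther from the start, which were not searched.

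Of 18 tested genes of the thioredoxin and peroxiredoxin system, 3 were higher and 1 lower, against 0.944% and 0.614% of all tested genes. TXNRD1, the cytosolic thioredoxin reductase, on chromosome 12 from 104215779 to 104350307, had 583, 591 and 668 CPM in UVA+CT cells, against 375, 405 and 396 CPM in UVA cells and 275 ± 8.98 CPM in control cells (log2 fold change 0.65, standard error 0.049, adjusted p = 1.13e-07). TXN, thioredoxin itself, had 773, 800.5 and 867 CPM in UVA+CT cells, against 634, 645 and 649 CPM in UVA cells and 514 ± 3.58 CPM in control cells (0.34, adjusted p = 3.41e-05). For both genes the UVA+CT libraries lay above the UVA libraries and the control libraries lowest. SRXN1, which restores overoxidized peroxiredoxins, was higher by 0.39 on the log2 scale (adjusted p = 0.0203), but adjusted p = 0.118 without UVA replicate 1. TXNIP, which binds and inhibits thioredoxin, was lower, with 68.9, 68.8 and 50.6 CPM in UVA+CT cells and 104, 104 and 93.9 CPM in UVA cells (-0.68, standard error 0.11, adjusted p = 0.0259). TXNIP was not called without UVA replicate 1 or 2, without control replicate 1 or 3, or with the 6 UVA+CT and UVA libraries alone. Its adjusted p reached 0.13 in these fits. PRDX1, an abundant peroxiredoxin, had a log2 fold change of 0.13 and was not called. Its 95% interval, unadjusted for the number of genes as all those given, was 0.047 to 0.22.

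NADPH, the electron donor of both systems, is supplied by the pentose phosphate pathway and by malic enzyme. The transketolase TKT of this pathway was higher (0.26, adjusted p = 0.00131), with 558, 559.9 and 547 CPM in UVA+CT cells, against 483, 431 and 479 CPM in UVA cells and 479 ± 7.38 CPM in control cells, and kept its call in all 9 fits without 1 library. PGD, a dehydrogenase of the pathway (0.22, adjusted p = 0.00732), TALDO1, a transaldolase (0.22, adjusted p = 0.00978), and ME1, cytosolic malic enzyme (0.30, adjusted p = 0.0314), were also higher but did not keep their calls in all of these fits. Their largest adjusted p were 0.0777 without UVA replicate 2, 0.101 without UVA replicate 3 and 0.203 without UVA+CT replicate 3.

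Other members of the list reduce, conjugate or export electrophiles. NQO1, a quinone reductase on chromosome 16 from 69709401 to 69726560, had 318, 316 and 335 CPM in UVA+CT cells, against 241, 239 and 243 CPM in UVA cells and 245 ± 5.62 CPM in control cells. Its UVA and control libraries lay close together and the UVA+CT libraries above both, with a log2 fold change over UVA of 0.42 (standard error 0.039, adjusted p = 8.25e-07). UGDH, which makes the donor for glucuronidation, was higher by 0.41 (adjusted p = 0.000457). The export pump ABCC3 was higher by 0.36 on the log2 scale (adjusted p = 0.00428, and 0.0524 without UVA replicate 2). AKR1B10, an aldo-keto reductase, had 12.2, 10.4 and 9.8 CPM in UVA+CT cells and 6, 4.57 and 6.7 CPM in UVA cells, while control cells had 10.8 ± 2.32 CPM (0.90, adjusted p = 0.0061, and 0.0548 without UVA replicate 2). The near-identical genes AKR1C1, AKR1C2 and AKR1C3 can share reads. Only AKR1C3 of these 3 was called (0.98, adjusted p = 0.00981, and 0.0558 without UVA replicate 1), and AKR1C2 had 679, 578 and 767 CPM in UVA+CT cells and 348, 355 and 441 CPM in UVA cells (0.82, adjusted p = 0.0836). FTL, the light chain of ferritin, which stores iron, was higher (0.29, adjusted p = 0.000202), as was OSGIN1, an oxidative stress-induced growth inhibitor (0.82, adjusted p = 0.000519). TRIM16L, which can share reads with its parent gene TRIM16, was higher by 0.52 (adjusted p = 1.13e-06), and TRIM16 by 0.17 (adjusted p = 0.0362, and 0.181 without UVA+CT replicate 3).

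HMOX1, an inducible haem oxygenase and textbook target of NRF2, had few counts. It had 0.336, 1.54 and 1.07 CPM in UVA+CT cells, against 0.722, 0.304 and 0.511 CPM in UVA cells and 0.875 ± 0.446 CPM in control cells, and the groups overlapped. Its log2 fold change of 0.92 had a 95% interval of -0.17 to 2.01, so neither no change nor a 2-fold rise was outside it. NFE2L2, the gene of NRF2, had 256, 236 and 259 CPM in UVA+CT cells and 262, 259.5 and 265 CPM in UVA cells, a log2 fold change of -0.065 with a 95% interval of -0.15 to 0.021. KEAP1 was not called either (0.20, 95% interval 0.067 to 0.34, adjusted p = 0.142). Of 13 tested genes listed as regulators of NRF2, the only 1 called was TXNIP, described above as an inhibitor of thioredoxin.

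**Figure D2:**
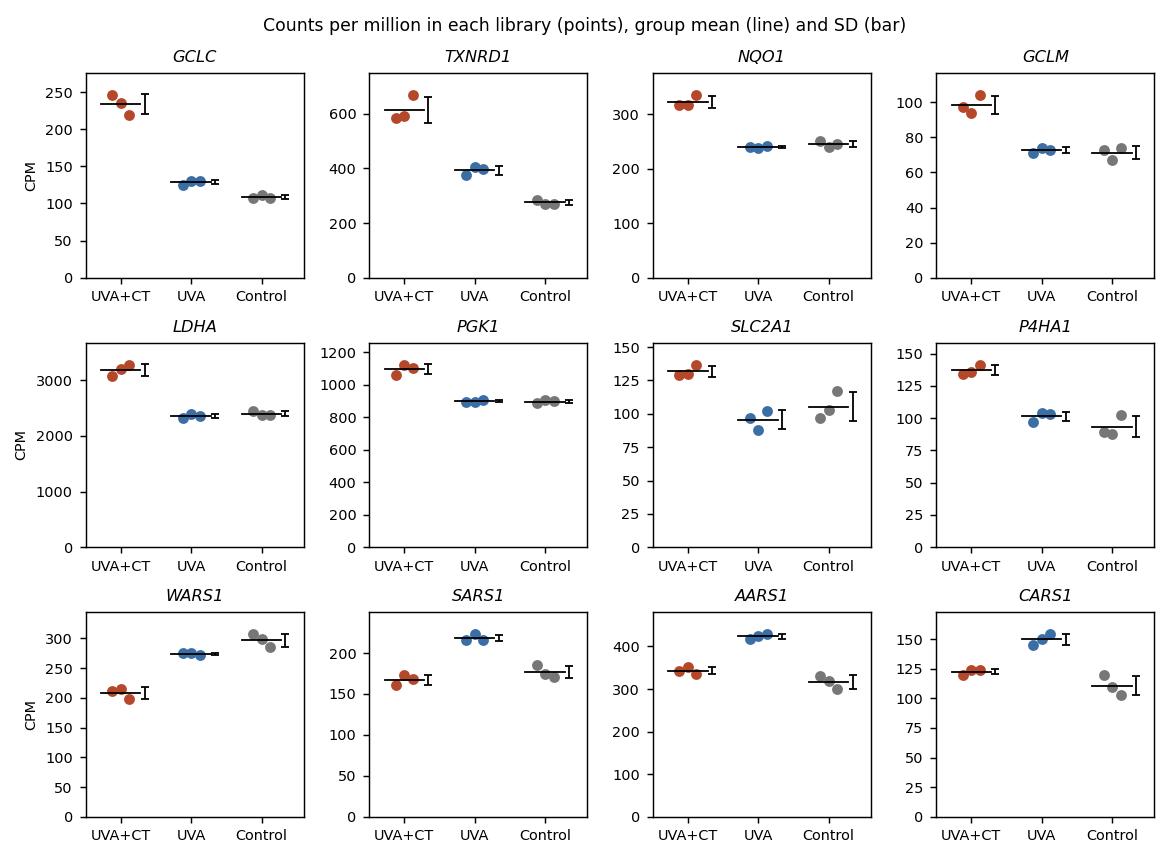
CPM of 12 genes in each library (points) of UVA+CT, UVA and control cells, with the mean (line) and the SD (bar, n = 3). The genes linked to NRF2 (top row) and those of glycolysis and hypoxia (middle row) have their 3 UVA+CT points above all UVA points, and the aminoacyl-tRNA synthetase genes (bottom row) have them below.

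The aryl hydrocarbon receptor (AHR) binds planar ligands, among them plant flavonoids, and induces cytochrome P450 genes. Of 15 tested genes of this receptor and its targets, 4 were higher (NQO1, UGT1A6, TIPARP and CYP1A1) and 0 lower. The share called higher over all tested genes was 0.944%. CYP1A1 had 74.9, 45.2 and 40.1 CPM in UVA+CT cells, against 18.3, 15.2 and 15.4 CPM in UVA cells and 8.39 ± 1.89 CPM in control cells. UVA+CT replicate 1 was well above the other 2 libraries of its group. The log2 fold change was 1.71 (standard error 0.28, adjusted p = 0.0489). CYP1B1 showed the same order, with 115, 68.7 and 66.1 CPM in UVA+CT cells and 30.2, 31.5 and 30.3 CPM in UVA cells (1.44, adjusted p = 0.051), and fell just short of the threshold. Without UVA+CT replicate 1 its log2 fold change was 1.14 with an adjusted p of 1.81e-08, and that of CYP1A1 was 1.39 with an adjusted p of 1.53e-05. CYP1A1 was not called in the other 8 fits without 1 library, where its adjusted p reached 0.182 (without UVA replicate 2), nor with RLE scaling (0.0502) or library size alone (0.0555). It also lost the call without a filter on low counts and with the 6 UVA+CT and UVA libraries alone. In all, CYP1A1 kept its call in 7 of 19 alternatives. TIPARP, a target that limits the receptor, was higher with little spread, at 176, 162 and 169 CPM in UVA+CT cells and 129, 143 and 137 CPM in UVA cells (0.31, standard error 0.048, adjusted p = 0.000841). UGT1A6 (0.42, adjusted p = 1.84e-05) and UGT1A1 (0.52, adjusted p = 0.0031), glucuronosyltransferases that share most of their exons, cannot be separated with certainty, and UGT1A1 was outside the list and chosen after its values were seen. AHR itself was not called (-0.083, 95% interval -0.18 to 0.013). The core GCGTG was present in 49.7% of promoters of genes called higher, 42.6% of those called lower and 48.1% of all tested.

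Genes at most steps of glycolysis were higher. Of 27 tested genes of glucose uptake, glycolysis and its control, 14 were higher and 0 lower, with a median log2 fold change of 0.17. The share called higher over all tested genes was 0.944%. DESeq2 and limma-voom also called 14 each. Between 10 and 14 were called without 1 library, and 9 kept their call in all 9 of these fits. LDHA, which turns pyruvate into lactate, on chromosome 11 from 18394563 to 18408425, had 3077, 3194 and 3280.2 CPM in UVA+CT cells, against 2321, 2397 and 2354 CPM in UVA cells and 2399.7 ± 44 CPM in control cells. The spread within each group was small beside the gap between them, and the log2 fold change was 0.43 (standard error 0.035, adjusted p = 1.23e-07). SLC2A1, the glucose carrier GLUT1, had 129, 129.8 and 137 CPM in UVA+CT cells, against 96.6, 88.2 and 102 CPM in UVA cells and 105 ± 10.6 CPM in control cells (0.46, standard error 0.066, adjusted p = 0.00106). PGK1, phosphoglycerate kinase, had 1062, 1125 and 1102 CPM in UVA+CT cells, against 897, 898 and 907 CPM in UVA cells and 897 ± 9.49 CPM in control cells (0.28, standard error 0.035, adjusted p = 5.72e-05). In LDHA and PGK1 the UVA and control libraries were close to each other, below those with CT. From the upper to the lower part of the pathway the log2 fold changes were 0.28 for GPI, 0.32 for PFKP, 0.26 for ALDOA, 0.25 for TPI1, 0.27 for PGAM1 and 0.22 for ENO1, with adjusted p between 0.000215 and 0.00435.

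The hexokinases HK1 (0.25, adjusted p = 0.0103) and HK2 (0.48, adjusted p = 0.0061), GAPDH (0.17, adjusted p = 0.0145) and PKM (0.17, adjusted p = 0.0257) were higher too. PDK1, which holds pyruvate back from the mitochondria, was higher by 0.47 on the log2 scale (adjusted p = 0.0145). These 5 lost the call without single libraries, with adjusted p up to 0.0787 for HK1 (without UVA replicate 3), 0.0602 for HK2 (without UVA replicate 1), 0.135 for GAPDH (without UVA+CT replicate 2), 0.154 for PKM (without UVA replicate 2) and 0.12 for PDK1 (without UVA replicate 1). Isoforms of the same steps were not all called. PFKL (0.13, 95% interval -0.0078 to 0.26), PFKM (0.15, 0.060 to 0.25), LDHB (0.12, 0.030 to 0.21) and ALDOC (-0.052, -0.19 to 0.084) did not pass the threshold. Reads of glycolytic genes can fall on their processed pseudogenes, and LDHAP4, a pseudogene of LDHA, was itself called higher (0.79, adjusted p = 0.00157).

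**Figure D3:**
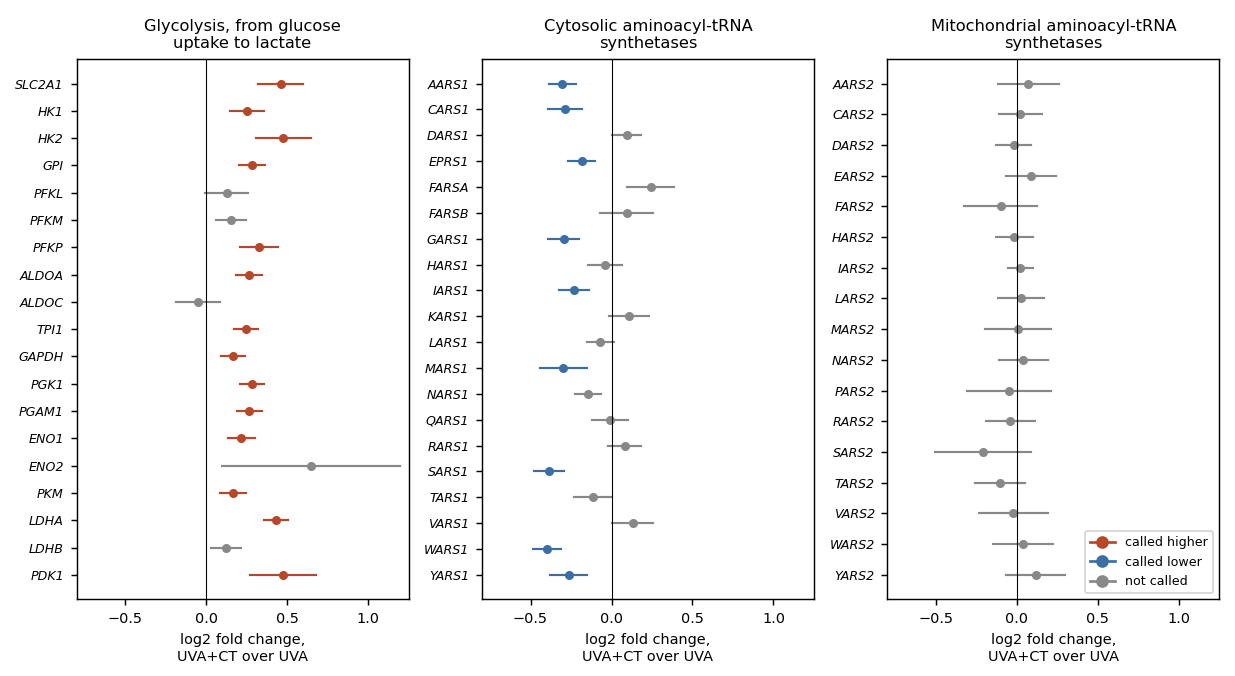
Log2 fold change, UVA+CT over UVA (horizontal axis), with its 95% interval (line) for 19 genes of glycolysis in the order of the pathway, 20 cytosolic and 17 mitochondrial aminoacyl-tRNA synthetases. Red marks genes called higher, blue genes called lower and grey genes not called. Red points run from SLC2A1 at the top to PDK1 at the bottom, 9 cytosolic synthetases are blue, and 0 of the 17 mitochondrial ones is called.

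Some genes that hypoxia induces through HIF were higher. The list had 33 tested genes, HIF1A itself included, of which 8 were higher and 0 lower, and HIF1A is among the 8. The median log2 fold change was 0.20, and 18 were higher at an unadjusted p under 0.05. Of all 15154 tested genes, 0.944% were called higher and 1122 were higher at an unadjusted p under 0.05. Only 4 to 5 were called without UVA+CT replicate 2 or 3 or without UVA replicate 1. SLC2A1 and PDK1 belong to this list as well. P4HA1, a collagen prolyl hydroxylase, had 134, 136 and 141 CPM in UVA+CT cells, against 97.2, 104 and 103 CPM in UVA cells and 93.3 ± 8.2 CPM in control cells (0.44, standard error 0.054, adjusted p = 5.72e-05). BNIP3, which marks mitochondria for autophagy, had 24.4, 29.1 and 29.6 CPM in UVA+CT cells and 12.1, 12 and 13.3 CPM in UVA cells, the largest of the rises that kept their call in every fit without 1 library in this list. KDM3A, a histone demethylase, was higher by 0.27 (adjusted p = 0.00569). NDRG1, a stress-induced gene, had 233, 249 and 229 CPM in UVA+CT cells and 146, 140.2 and 165 CPM in UVA cells (0.65, adjusted p = 0.00637, and 0.0533 without UVA+CT replicate 3). EGLN3, a prolyl hydroxylase that marks the alpha subunit for degradation, had 2.59, 2.49 and 2.61 CPM in UVA+CT cells, against 1.17, 1.1 and 1.18 CPM in UVA cells and 2.56 ± 0.642 CPM in control cells. Its fold change (1.16, adjusted p = 0.0229) rests on low counts and was not called without UVA replicate 2 (adjusted p = 0.0999). MIR210HG, the host transcript of a hypoxia-induced microRNA, lay outside the list and was chosen after its values were seen (1.38, adjusted p = 0.00753, and 0.0579 without UVA replicate 3). HIF1A, which encodes the alpha subunit, was higher by 0.20 on the log2 scale (adjusted p = 0.0345, and 0.194 without UVA replicate 2). VEGFA (-0.096, 95% interval -0.38 to 0.19), ANGPTL4 (1.42, adjusted p = 0.0836) and CA9 (1.35, adjusted p = 0.159) were not called.

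The promoter of LDHA is shown as the one of a strongly expressed called gene with several copies of the HIF core ACGTG, in capitals on either strand, of which a run CACGTG holds 1 on each.
LDHA, RefSeq GRCh38.p14, chr11:18394313-18394612, plus strand: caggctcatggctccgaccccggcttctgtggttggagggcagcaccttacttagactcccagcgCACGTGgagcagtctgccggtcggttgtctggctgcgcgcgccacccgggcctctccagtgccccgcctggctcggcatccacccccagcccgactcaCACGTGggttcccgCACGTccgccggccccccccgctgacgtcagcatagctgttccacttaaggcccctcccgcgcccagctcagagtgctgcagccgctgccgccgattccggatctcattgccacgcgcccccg
This stretch held 5 matches, the first 185 bases before the start. The core was present in 29.2% of promoters of genes called higher, 20.9% of those called lower and 25.4% of all tested. It was in 20 of 37 promoters of the tested genes of the HIF list (54.1%) and in 20 of 52 of the glycolysis genes (38.5%). The HIF list was drawn from textbook targets, so that the list and the motif are not independent.

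Some genes of the ATF4 programme were lower. The list of ATF4 and integrated stress regulators had 28 tested genes, of which 0 were higher and 4 lower (ASNS, DDIT3, SESN2 and JDP2), with a median log2 fold change of -0.14, where 0.614% of all tested genes were called lower. Of 23 enzymes of serine, asparagine and one-carbon metabolism, 0 were higher and 5 lower (ASNS, PCK2, PHGDH, SHMT2 and BCAT1), with a median of -0.18. At an unadjusted p under 0.05 these lists had 12 and 10 genes lower. ATF4 itself had 381, 387 and 404 CPM in UVA+CT cells and 401, 393 and 408 CPM in UVA cells, a log2 fold change of -0.036 with a 95% interval of -0.15 to 0.074. PHGDH, the first enzyme of serine synthesis, had 173, 176 and 150.2 CPM in UVA+CT cells, against 232, 222 and 212 CPM in UVA cells and 248 ± 6.08 CPM in control cells, so that UVA+CT libraries were below both other groups. SESN2, a stress-induced inhibitor of mTORC1 signalling, had 11.7, 11.9 and 10.7 CPM in UVA+CT cells, against 18.4, 19.4 and 17.4 CPM in UVA cells and 12.4 ± 0.798 CPM in control cells. BCAT1, the cytosolic branched-chain aminotransferase, was lower (log2 fold change -0.31, standard error 0.052, adjusted p = 0.00171). PSAT1, the second enzyme of serine synthesis, had 503, 517 and 463 CPM in UVA+CT cells, against 723, 758 and 725 CPM in UVA cells and 503 ± 76.5 CPM in control cells. Its UVA+CT libraries lay near the control level, but the adjusted p was 0.055 in edgeR, 4.33e-05 in DESeq2 and 0.000774 in limma-voom. GPT2, a mitochondrial alanine aminotransferase, was likewise just outside the threshold (-0.45, adjusted p = 0.0543). TRIB3, an ATF4 target that feeds back on it, had 47.9, 51.1 and 49.1 CPM in UVA+CT cells and 67.4, 69.7 and 69.9 CPM in UVA cells (-0.48, adjusted p = 0.119). INHBE, outside the lists and chosen after its values were seen, had 0.529, 0.349 and 0.327 CPM in UVA+CT cells and 1.5, 1.7 and 1.64 CPM in UVA cells (-1.99, adjusted p = 0.00776, and 0.0628 without UVA+CT replicate 3). With DESeq2, 8 genes of each of these lists were lower, and with limma-voom 6 and 8. Without control replicate 1 or 3 the lists had 7 and 8 genes lower, and JDP2 was not called without UVA replicate 2 (adjusted p = 0.0524).

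Among 17 tested amino acid transporters, 0 were higher and 1 was lower, against 0.944% and 0.614% of all tested genes. SLC1A4, a carrier of alanine, serine and cysteine, had 40.9, 40.1 and 33.3 CPM in UVA+CT cells, against 52.7, 52.3 and 52 CPM in UVA cells and 35.6 ± 3.4 CPM in control cells (-0.46, standard error 0.078, adjusted p = 0.0026). SLC7A11 belongs to the ATF4 and the NRF2 list, and its log2 fold change was above 0, as given before. SLC1A5 (-0.19, adjusted p = 0.169) and SLC38A2 (-0.13, adjusted p = 0.182), both glutamine carriers, did not pass the threshold.

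Aminoacyl-tRNA synthetases load amino acids on tRNA, and the cytosol and the mitochondria use largely separate sets. A test between the sets was not run. Of 20 cytosolic aminoacyl-tRNA synthetases, 0 were higher and 9 lower, with a median log2 fold change of -0.13. Of 17 mitochondrial ones, 0 were called and the median was 0.0058. For 0 of the 17 did the UVA+CT and UVA libraries lie apart, against 12 of the 20 cytosolic ones. Over all tested genes the libraries lay apart for 18.8%, and 0.614% were called lower. WARS1, which charges tryptophan, on chromosome 14 from 100333790 to 100376327, had 212, 216 and 198 CPM in UVA+CT cells, against 275, 276 and 272 CPM in UVA cells and 297 ± 10.9 CPM in control cells (-0.40, standard error 0.042, adjusted p = 8.16e-06). SARS1, for serine, had 161, 173 and 168 CPM in UVA+CT cells, against 216, 223 and 216 CPM in UVA cells and 177 ± 7.48 CPM in control cells (-0.39, standard error 0.044, adjusted p = 1.84e-05). The UVA libraries of SARS1 were the highest of the 3 groups, whereas for WARS1 the control libraries were. AARS1 (-0.30, adjusted p = 0.000164), GARS1 (-0.30, adjusted p = 0.00107) and CARS1 (-0.29, adjusted p = 0.00267), for alanine, glycine and cysteine, also kept their call in all 9 fits without 1 library. IARS1 (-0.23, adjusted p = 0.00896), YARS1 (-0.26, adjusted p = 0.0158), EPRS1 (-0.18, adjusted p = 0.0211) and MARS1 (-0.30, adjusted p = 0.0457) did not. Without UVA replicate 2 or UVA replicate 3, 5 synthetases were lower, and the largest adjusted p of these 4 was 0.194, for MARS1 without UVA+CT replicate 3. The other cytosolic synthetases were mixed, from NARS1 (-0.15, adjusted p = 0.0527) to FARSA (0.24, adjusted p = 0.0911).

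Promoters of 7 called members of these lists are shown because TGATGNAAN, the composite element bound by ATF4 with a C/EBP partner, was the searched motif that differed most in share between genes called lower and all tested genes. The sequences are from RefSeq (GRCh38.p14), turned so that the motif, in capitals, reads in this direction.
ASNS, chr7:97872453-97872491, minus strand: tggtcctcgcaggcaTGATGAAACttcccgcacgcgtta
AARS1, chr16:70289671-70289709, plus strand: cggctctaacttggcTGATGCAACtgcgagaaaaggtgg
CARS1, chr11:3057403-3057441, plus strand: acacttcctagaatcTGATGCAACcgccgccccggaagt
GARS1, chr7:30594829-30594867, minus strand: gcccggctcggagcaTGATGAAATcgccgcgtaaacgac
BCAT1, chr12:24949126-24949164, minus strand: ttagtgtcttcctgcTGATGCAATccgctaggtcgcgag
JDP2, chr14:75427991-75428029, plus strand: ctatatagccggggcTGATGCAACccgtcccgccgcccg
SLC1A4, chr2:64989376-64989414, minus strand: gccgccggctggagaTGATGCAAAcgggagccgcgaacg
Searched on both strands, the motif was present in 16 of 115 promoters of genes called lower (13.9%), in 3 of 171 promoters of genes called higher (1.75%) and in 326 of 15763 promoters of all tested genes (2.07%). At an adjusted p under 0.01 the counts were 10 of 52 (19.2%) for lower and 0 of 69 for higher. Among the tested synthetases 8 of 39 promoters held it (20.5%), and among the serine, asparagine and one-carbon enzymes 6 of 28 (21.4%). Several of these genes are textbook examples of the element, so that the lists and the motif are not independent.

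Lists of protein quality control had few calls, where 0.944% of all tested genes were called higher and 0.614% lower. Of 39 tested ER chaperones and sensors of the unfolded protein response, 0 were higher and 1, XBP1, was lower, with a median log2 fold change of 0.026. HSPA5, the main ER chaperone, had 903, 988 and 1021 CPM in UVA+CT cells and 964, 1042 and 1063 CPM in UVA cells (-0.076, 95% interval -0.18 to 0.024). Of 42 genes of proteasome subunits or their assembly, 2 were higher and 0 lower, and 39 of the 42 had a log2 fold change above 0. The 2 were PSMD3 (0.21, adjusted p = 0.0298), a subunit of the regulatory lid, and POMP (0.21, adjusted p = 0.0404), which assembles the core. Both lost the call without UVA replicate 1, where 0 members were called, and 6 were called without UVA+CT replicate 1. Of 30 chaperones of the cytosol and mitochondria, HSPA1B alone was called, which can share reads with HSPA1A, and 24 had a log2 fold change above 0. The number called was 11 without UVA+CT replicate 1 and 0 without UVA+CT replicate 3 or UVA replicate 1 or 2, and 7 with DESeq2. At an unadjusted p under 0.05 from edgeR, 17 of these 30 chaperones were higher and 1 lower. Of the 42 proteasome genes 18 were higher and 0 lower, and of the 39 ER genes 8 were higher and 2 lower. Over all 15154 tested genes, 1122 were higher and 878 lower by this rule.

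Most genes of ribosomes and of the respiratory chain had log2 fold changes slightly above 0. Their 3 families were chosen by gene symbol after values had been seen. Of all 15154 tested genes, 0.944% were called higher and 7689 had a log2 fold change above 0. Of 84 cytosolic ribosomal protein genes, 8 were higher and 0 lower, and 71 had a log2 fold change above 0, with a median of 0.061. The clearest was RPS21, with 137, 149 and 141 CPM in UVA+CT cells and 118, 115 and 112 CPM in UVA cells (0.31, standard error 0.047, adjusted p = 0.000685). Of 77 mitochondrial ribosomal protein genes, 4 were higher and 71 were above 0, with a median of 0.11. Of 74 nuclear genes of respiratory chain and ATP synthase subunits, 4 were higher, 67 were above 0, and the median was 0.092. ATP5F1E, the epsilon subunit of ATP synthase, was higher by 0.29 (adjusted p = 0.00152). Without any one UVA library, or without UVA+CT replicate 2 or 3, between 1 and 4 cytosolic and 0 mitochondrial ribosomal protein genes were called. Without UVA+CT replicate 1 the numbers were 15 and 8. For the respiratory chain they lay between 1 (without UVA replicate 1) and 4. Of 15 mitochondrially encoded genes, 3 were higher and 0 lower. ND3, a subunit of complex I, had 812, 769 and 839 CPM in UVA+CT cells and 595, 673 and 636 CPM in UVA cells (0.35, adjusted p = 0.00133). ND2 (0.20, adjusted p = 0.0145, and 0.0967 without UVA replicate 3) and ATP8, which overlaps ATP6 (0.42, adjusted p = 0.0104, and 0.09 without UVA+CT replicate 3), did not keep their call.

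Transcript length moved with these values. The median log2 fold change was 0.078 over the 513 genes whose longest transcript had up to 1000 bases and -0.034 over the 1087 genes over 8000 bases, counting tested genes of known length whose log2 CPM averaged 0 or more. Of the short genes 17 were called higher and 1 lower, and of the long ones 5 were called higher and 19 lower. The median transcript length was 2783 bases for genes called higher, 5529 for genes called lower and 3452 for all tested, against 1864.5 for cytosolic ribosomal, 1727 for mitochondrial ribosomal and 1504 for respiratory chain genes. After a correction for length and GC content in each library, 269 genes were called, 181 higher and 88 lower, and 213 were among the 236. The counts of genes called were then 9 for cytosolic ribosomal, 5 for mitochondrial ribosomal and 5 for respiratory chain genes, 23 for the NRF2-linked genes, 14 for glycolysis and 9 for the synthetases. Genes without a matched length and GC content were left uncorrected, among them the called synthetases WARS1, SARS1, AARS1, GARS1 and CARS1. For these the calls say nothing about an effect of length. Whether length-dependent recovery of RNA had a part in these values was not tested.

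**Figure D4:**
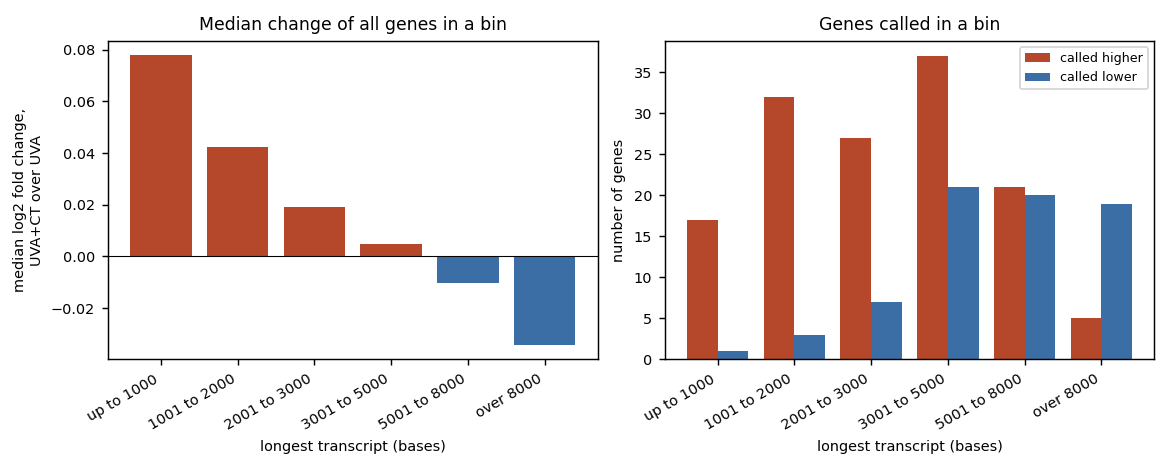
Median log2 fold change, UVA+CT over UVA, of tested genes whose log2 CPM averaged 0 or more, in 6 bins of the length of their longest transcript in bases (left) and the number of genes called higher and lower in each bin (right). The medians run from 0.078 in the shortest bin to -0.034 in the longest, and genes called lower outnumber those called higher only in the last bin.

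Several lists that bear on irradiated keratinocytes had no or single calls, where 1.56% of all tested genes were called. In lists of this size 0 or 1 call is near that share. An unadjusted p under 0.05 was met by 2000 of the 15154 tested genes. Of 37 tested genes of G2/M and mitosis and 34 of DNA replication, edgeR called 0, with 5 and 3 at an unadjusted p under 0.05, and their log2 fold changes lay between -0.16 and 0.18 and between -0.13 and 0.12. Of 35 cell death genes 0 were called (9 at an unadjusted p under 0.05), and BAX (0.080, 95% interval -0.094 to 0.25) and BBC3 (-0.33, 95% interval -0.82 to 0.16) were among them. Of 23 inflammatory genes 0 were called (1 at an unadjusted p under 0.05). CXCL8, the neutrophil chemokine, had 1.97, 4.63 and 8.77 CPM in UVA+CT cells, against 2.56, 4.02 and 3.48 CPM in UVA cells and 1.01 ± 0.318 CPM in control cells, and its libraries varied too much within groups for a change to be told (0.62, 95% interval -0.54 to 1.78). Of 30 interferon-stimulated genes, STAT2 alone was lower (-0.31, adjusted p = 0.00648, and 0.0584 without UVA+CT replicate 2), and of 26 p53 targets SESN2 alone. Of 30 genes of basal keratinocytes 0 were called (4 at an unadjusted p under 0.05), and of 17 tested genes of differentiation PPL, which encodes periplakin, was lower (-0.19, adjusted p = 0.0154, and 0.118 without UVA replicate 1). The UVA+CT and UVA libraries lay apart for 10 of the 30 basal genes, all lower in UVA+CT cells, against 18.8% of all tested genes. They lay apart for 11 of the 35 cell death genes, 4 higher and 7 lower. Single calls were made for ACSS2, an acetyl-CoA synthetase, among 33 genes of cholesterol and fatty acid synthesis (-0.34, adjusted p = 0.00447, and 0.0529 without UVA replicate 1) and for GLA, a lysosomal galactosidase, among 38 lysosomal and autophagy genes (0.22, adjusted p = 0.047, and 0.272 without UVA+CT replicate 3). DESeq2 called 1 and limma-voom 0 in the 5 lists with 0 edgeR calls.

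**Figure D5:**
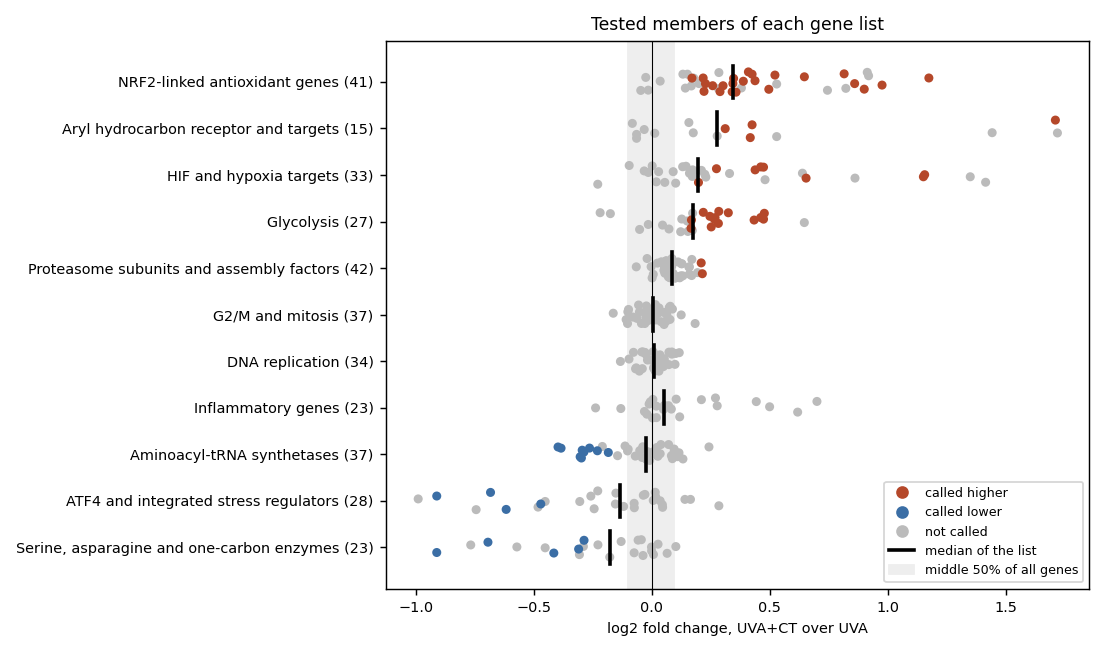
Log2 fold change, UVA+CT over UVA (horizontal axis), of each tested member (point) of 11 gene lists, with the number tested in brackets and the median as a black line. Red and blue points passed the test as higher or lower, and the grey band holds the middle 50% of all tested genes. The medians run from 0.34 for the NRF2-linked genes to -0.18 for the serine, asparagine and one-carbon enzymes, and mitosis and replication lie at 0.0052 and 0.0083.

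Of the called genes, 156 were in none of the lists, the 3 families chosen by symbol set aside. HAS3, a hyaluronan synthase, had 81.4, 80.2 and 77.8 CPM in UVA+CT cells, against 53.8, 51.7 and 58.5 CPM in UVA cells and 42.2 ± 3.18 CPM in control cells (0.54, standard error 0.062, adjusted p = 1.84e-05). LOXL2, a lysyl oxidase (0.52, adjusted p = 0.000394), GJA1, which encodes connexin 43 (0.52, adjusted p = 0.000519), and ALDH1A3, which makes retinoic acid (0.25, adjusted p = 0.000457), were higher as well. CLIC4, a chloride intracellular channel protein, had 304, 292 and 273 CPM in UVA+CT cells, against 384, 403 and 393 CPM in UVA cells and 325 ± 20.6 CPM in control cells (-0.44, adjusted p = 1.2e-05). Its UVA libraries were the highest of the 3 groups. CSTA, a cystatin of the cornified envelope (-0.33, adjusted p = 0.000457), and IL20RB, a receptor subunit for interleukins of the IL-20 group (-0.29, adjusted p = 0.00157), were lower. HAS3, LOXL2, GJA1, ALDH1A3, CSTA and IL20RB were chosen after their values were seen. These 6 genes and CLIC4 kept their call in each fit without 1 library.

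The largest rises and falls among genes whose log2 CPM averaged 2 or more included further genes outside the lists. MDGA1 was higher (0.63, adjusted p = 0.000423) and kept its call in each fit without 1 library. GAREM1 (0.63, adjusted p = 0.0145, and 0.102 without UVA replicate 1) and SLCO4A1, an organic anion carrier (0.58, adjusted p = 0.0282, and 0.216 without UVA+CT replicate 3), were higher but did not. Of the genes that were lower, ECM2 (-0.92, adjusted p = 0.00423, and 0.051 without UVA replicate 2) and PRICKLE1, of planar cell polarity (-0.57, adjusted p = 0.00776, and 0.078 without UVA replicate 2), each kept their call in 8 of the 9 fits. SLC15A2, a peptide carrier (-0.73, adjusted p = 0.0201, and 0.138 without UVA replicate 1), and NEURL1B, an E3 ubiquitin ligase (-0.66, adjusted p = 0.0343, and 0.177 without UVA replicate 1), kept theirs in 5 and 4.

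Genes at 0 in every library of 1 group gave the largest fold changes of the comparison. F8A2 had 105, 95 and 97 counts in UVA+CT cells and 0 in every UVA and control library, and F8A3 had 0 counts in every UVA+CT library, 130, 65 and 99 in UVA cells and 109, 64 and 75 in control cells. Against a floor of 3 counts per library F8A2 was at least 28.5-fold higher, and F8A3 at least 37.5-fold lower, in UVA+CT cells. F8A1, F8A2 and F8A3 have nearly the same sequence, and their sum was 13.4, 11.8 and 11.1 CPM in UVA+CT cells and 13.2, 13.1 and 13.7 CPM in UVA cells, a ratio of 0.906. How reads were assigned among the copies was not tested. ENSG00000287856, for which no gene name was matched, had 147, 80 and 103 counts in UVA+CT cells, 0 in every UVA library and 126, 119 and 110 counts in control cells, and was at least 31.6-fold higher in UVA+CT than in UVA cells. ENSG00000269693, also without a matched name, was at 0 in every UVA+CT library and at 0.904 ± 0.273 CPM in UVA cells, at least 6.26-fold lower in UVA+CT cells. DESeq2 gave no adjusted p for F8A2 and ENSG00000269693. Copies or readthrough transcripts also make NOTCH2NLA (-0.61), SMN2 (0.23), PPIAP22 (0.28), MSH5-SAPCD1 (-0.83) and SYNJ2BP-COX16 (1.14) uncertain.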

How the data were processed

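RNA of HaCaT cells was sequenced as 9 libraries, 3 for each of UVA+CT, UVA and control. The authors deposited raw counts of reads per gene. Per the submitters' processing notes, bcl2fastq and fastp 0.23.2 were used with genome GRCh38. For the aligner, the counter, the annotation and the use of strand, no entry is given in the sources used here. Totals per library are given above, and fitted intervals cover the spread between libraries. Genes with too few counts were removed by filterByExpr, libraries were scaled by TMM, and all 9 were fitted together by edgeR 4.0.16 (R 4.3.3) with robust quasi-likelihood F tests, testing UVA+CT minus UVA with Benjamini-Hochberg adjustment over 15154 genes. CPM used the same scaling. Gene positions and promoters came from RefSeq (GRCh38.p14), matched by symbol, and promoters on chromosome 8 were left out. For nuclear genes, transcript lengths and GC content were those of the longest GENCODE transcript. The scripts were tested on simulated data.

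Named genes were the 15 largest rises and the 15 largest falls among called genes whose groups did not overlap and whose log2 CPM averaged 2 or more, the 15 with the smallest adjusted p, called list members with up to 4 further members by value, and genes named by the study. Others are marked as chosen after their values were seen. A few items that the rule names are not reported here. The members and lists were chosen with earlier results of these data known. Alternatives were DESeq2 1.42.0, limma-voom (limma 3.58.1), other scalings and filters, the 6 UVA+CT and UVA libraries alone, a replicate block, leaving out each library, libraries thinned to equal depth and, chosen after seeing the data, a length and GC content correction.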

Additional observations from a re-analysis of the deposited data

How the results depend on the processing

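Of the 236 called genes, 69 kept their call under every alternative that gave them an adjusted p, 167 lost it without at least 1 library, and 0 changed sign. The number called lay between 95 and 372 without 1 library, with 62 to 239 higher and 33 to 133 lower, and the 111 genes with an unadjusted p under 0.05 and over 2-fold became 131 to 179. Without a filter on low counts 561 genes were called, 329 higher and 232 lower, and 535 passed the unadjusted rule, which only 17 passed with at least 10 counts in every library. With the 6 UVA+CT and UVA libraries alone 140 genes were lower. At an adjusted p under 0.01 the count was 100, 62 higher and 38 lower. DESeq2 called 300 genes and gave no adjusted p for 12 of the 236, limma-voom called 190, and scaling by library size alone moved the median log2 fold change by -0.017.

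No pairing by replicate number was seen over all genes. Deviations of same-numbered UVA and UVA+CT libraries correlated at -0.019 to 0.028 and those of different numbers at -0.061 to 0.044. Such correlations can miss a pairing that touches few genes, and the labels do not say whether libraries were paired. With a replicate block 169 genes were called, 112 higher and 57 lower, and 158 were among the 236.

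Without 1 library, NRF2-linked genes called higher numbered 14 to 26, glycolysis genes 10 to 14 and genes of the HIF list 4 to 9. In the same fits, synthetases called lower numbered 5 to 10, the ATF4 list 3 to 7 and the serine, asparagine and one-carbon enzymes 5 to 8. The ATF4 list had 8 lower with DESeq2 or the 6 libraries alone and 9 without a filter. The serine, asparagine and one-carbon list had 8 lower with DESeq2, limma-voom, no filter or at least 10 counts, and 9 with the 6 libraries alone. The cause of these moves was not tested. Of the called genes 211 averaged over 10 CPM.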
